A study of Rattus norvegicus with 12 samples.

Results

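Keratins are the intermediate filament proteins of epithelial cells. The array used here carried 46 probes for 44 rat genes whose file name starts with Krt and a digit, out of 30367 probes and 26456 gene names. The rule for members uses the name alone and no measured value. Single-colour Agilent arrays were hybridised with RNA of left kidneys, taken whole, from females of the inbred rat strain F344 that were operated on at 10 weeks of age. The groups were rats killed 3 days after unilateral ischemia-reperfusion injury (IRI day 3, 4 rats), rats killed 7 days after the same injury (IRI day 7, 4 rats) and sham-operated rats killed 7 days after surgery (4 rats). In this injury the blood supply of 1 kidney is interrupted and then restored. No sham group was killed at day 3, and both injured groups were set against the same 4 sham arrays, so those comparisons are not independent of each other. The study, by its title, is about how renal tubules repair, well or badly, after injury.

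A keratin filament is built from pairs of 1 acidic type I and 1 basic type II protein, and different epithelia use different pairs. Simple epithelia, including kidney tubules and ducts, use Krt8 with Krt18, joined in ducts by Krt7 and Krt19. Stratified epithelia use Krt5 with Krt14 in the basal layer and pairs such as Krt1 with Krt10 or Krt4 with Krt13 above it. Krt16 and the Krt6 proteins appear in wounded epidermis, and a large set is restricted to the hair follicle and hair shaft. In the mature kidney the keratins of collecting ducts are the best known, and Krt8 and Krt18 are known as stress-responsive keratins of simple epithelia.

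The array reports each keratin through a stretch of 60 bases, and 3 probes of simple keratins are shown because the rises described below rest on them. They come from the deposited scanner files, with positions on the rat build rn4 where the files give them. The Krt8 probe spans chr7:140716967-140717949, a span longer than the probe, and the Krt19 probe lies at chr10:89081437-89081496. The files give no position for the Krt7 probe.

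Krt8 probe: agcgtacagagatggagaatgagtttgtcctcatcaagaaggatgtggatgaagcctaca
Krt19 probe: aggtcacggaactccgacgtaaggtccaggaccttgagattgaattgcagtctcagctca
Krt7 probe: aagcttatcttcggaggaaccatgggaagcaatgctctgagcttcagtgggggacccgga

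The probes of Krt16 (chr10:89176869-89176928) and Krt31 (chr10:88984951-88985010) are shown as an example of how alike keratin genes are. Capitals mark the bases that are identical when the probes are laid over each other without gaps. The overlap was 58 bases long and 34 of them were identical, which is 58.6%. Among the tested keratins only Krt27 and Krt28 had a pair of probes with more identical bases, 37 of 60.

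Krt16 probe: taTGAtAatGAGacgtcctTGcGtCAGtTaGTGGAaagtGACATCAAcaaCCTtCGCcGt
Krt31 probe: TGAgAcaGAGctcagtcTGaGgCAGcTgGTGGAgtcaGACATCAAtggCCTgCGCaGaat

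The 250 bases before the annotated start are shown for Krt18 and Krt75, which passed as higher in both injured groups, for Krt8, which rose at day 3, and for Krt10, which fell at day 3. They are RefSeq sequences on the assembly GRCr8, where Krt18 (chr7:135035918-135036167, plus strand) and Krt8 (chr7:135010340-135010589, minus strand) lie close together on chromosome 7. The Krt75 stretch is chr7:134576075-134576324 on the minus strand and the Krt10 stretch chr10:84839161-84839410 on the minus strand. Capitals mark matches, on either strand, to the GC box letters GGGCGG and the TATA box letters TATAAA.

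Krt18 promoter: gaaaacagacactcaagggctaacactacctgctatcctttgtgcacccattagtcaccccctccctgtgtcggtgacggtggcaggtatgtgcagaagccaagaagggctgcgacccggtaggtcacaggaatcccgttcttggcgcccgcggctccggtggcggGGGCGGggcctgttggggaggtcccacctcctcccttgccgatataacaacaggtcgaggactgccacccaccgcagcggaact
Krt8 promoter: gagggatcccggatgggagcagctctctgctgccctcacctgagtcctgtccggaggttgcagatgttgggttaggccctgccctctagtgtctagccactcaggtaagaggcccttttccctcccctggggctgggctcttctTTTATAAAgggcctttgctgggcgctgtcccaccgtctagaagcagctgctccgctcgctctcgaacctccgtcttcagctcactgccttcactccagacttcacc
Krt75 promoter: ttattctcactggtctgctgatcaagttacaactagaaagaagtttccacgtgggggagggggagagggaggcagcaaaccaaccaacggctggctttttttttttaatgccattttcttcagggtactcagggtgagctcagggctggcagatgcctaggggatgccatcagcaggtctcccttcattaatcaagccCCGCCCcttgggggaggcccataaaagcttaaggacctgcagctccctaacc
Krt10 promoter: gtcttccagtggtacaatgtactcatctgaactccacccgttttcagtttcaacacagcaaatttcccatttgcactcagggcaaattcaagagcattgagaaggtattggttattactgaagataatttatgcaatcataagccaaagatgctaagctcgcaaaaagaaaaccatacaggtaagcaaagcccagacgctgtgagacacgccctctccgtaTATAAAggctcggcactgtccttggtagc

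Krt18 held a GC box 84 bases before its start and Krt75 one 52 bases before, on the opposite strand. Krt8 held the TATA letters 104 bases before its start, overlapping a match on the opposite strand that begins 106 bases before it, and Krt10 held them 29 bases before its start. Promoter entries matched 34 of the 44 keratins. The TATA letters occurred in 20 of the 34, or 58.8%, against 12.9% of all 33469 promoters of this length. The GC box occurred in 5 of the 34, or 14.7%, against 30.5% of all promoters. The AP-1 letters TGANTCA occurred in 1 of the 34, that of Krt4, or 2.94%, against 6.34% of all promoters. A match to these letters is a description of the sequence only.

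The level of a probe is given below as the log2 of its processed signal over the 75th percentile of its array, so that 0 means a signal equal to that percentile. That percentile itself differed between groups. It was 714 ± 34.5 intensity units at day 3, 502 ± 60.9 at day 7 and 328 ± 72.6 in sham (SD, n = 4 each), which is 2.17 and 1.53 times sham, and the groups did not overlap (exact permutation test, two-sided p = 0.0286 in each comparison, the smallest that 4 against 4 arrays allow). All differences below are therefore relative to the 75th percentile. Scaling lowered every day 3 difference by 1.15 on the log2 scale and every day 7 difference by 0.64, so a gene whose day 3 fall is given as less than 1.15 was not lower in unscaled signal. Unscaled differences of the keratins are given further below for day 3 only, singly for those called higher and for Krt9 and Krt10. Those of most others called lower are given as a range. The arrays lay on 3 slides that each held all groups. The 5 thick ascending limb genes, the 6 proximal tubule genes and 10 of 11 collecting duct genes looked for passed the same detection filter as the keratins. So did 18511 of 26442 genes, so passing it says little about the tissue. The first gene of each of these lists was bright in sham: Umod at 5.22 to 5.57, Slc34a1 at 5.86 to 6.10 and Aqp2 at 3.03 to 3.95.

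Of the 44 keratins, 21 were tested, because in at least 1 group their probe was well above background on each of the 4 arrays. In all, 17 keratins stood above background on every day 3 array, 16 on every day 7 array and 18 on every sham array. The share was 38.6% of the keratins at day 3 and 40.9% in sham, where 67.2% and 60.7% of all genes stood above it. Only 12 stood above it on all 12 arrays, namely the simple keratins Krt7, Krt18, Krt19 and Krt80, the basal keratins Krt14 and Krt15, the suprabasal keratins Krt4 and Krt9, and the hair keratins Krt28, Krt73, Krt83 and the gene listed as Krt1-5. The last is now named Krt36, and the accession of the probe listed as Krt83 now belongs to Krt87. No keratin spot was saturated.

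Among the 23 keratins that were not tested, 12 stood above background on no array. These were Krt5, Krt13, Krt17, Krt23, Krt24, Krt26, Krt32, Krt34, Krt40, Krt42, Krt82 and Krt84. The other 11 (Krt1, Krt2, Krt12, Krt20, Krt33a, Krt35, Krt39, Krt72, Krt77, Krt78 and Krt85) stood above it on some arrays but not on all 4 of any group. For several tested keratins the usual partner was thus not measured above background, as with Krt5 for Krt14, Krt13 for Krt4 and, on most arrays, Krt1 for Krt10.

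By class, 5 of 7 simple epithelial keratins, 2 of 3 stratified basal keratins, 1 of 2 wound-activated keratins, 4 of 11 suprabasal and mucosal keratins and 9 of 20 keratins of the hair follicle and shaft were tested. Type I made up 13 of the tested genes and type II 8. Probes differ in how brightly they report, so levels are compared between groups for 1 keratin at a time and not between keratins.

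At day 3 most simple keratins rose and most other keratins fell. In the comparison of IRI day 3 with sham, 18 of the 21 tested keratins passed the threshold (limma, adjusted p under 0.05), 5 of them higher and 13 lower. Across all 18511 tested genes 57.3% passed, 24.2% higher and 33.1% lower, so a high count of calls is also what most genes show at this time. Krt16 and Krt76 are among those lower but passed the detection filter only through sham, so the filter favoured their direction. Krt8 and Krt75 are among those higher but passed it only through the injured groups, with the same effect. The groups did not overlap for 16 of the 21 keratins, against 51.7% of all genes. The median log2 difference was -0.92 over the keratins and -0.13 over all tested genes. It was 1.90 over the 5 simple keratins, of which 4 rose and none fell. It was -1.30 over the 7 keratins of stratified epithelia, of which none rose and 6 fell, and -0.92 over the 9 hair keratins, of which 1 rose and 7 fell. Probes above background on no array also had a low median, -0.78 over 4488 probes and -0.85 over the 13 keratin probes among them. The median of the hair keratins was close to these.

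**Figure D1:**
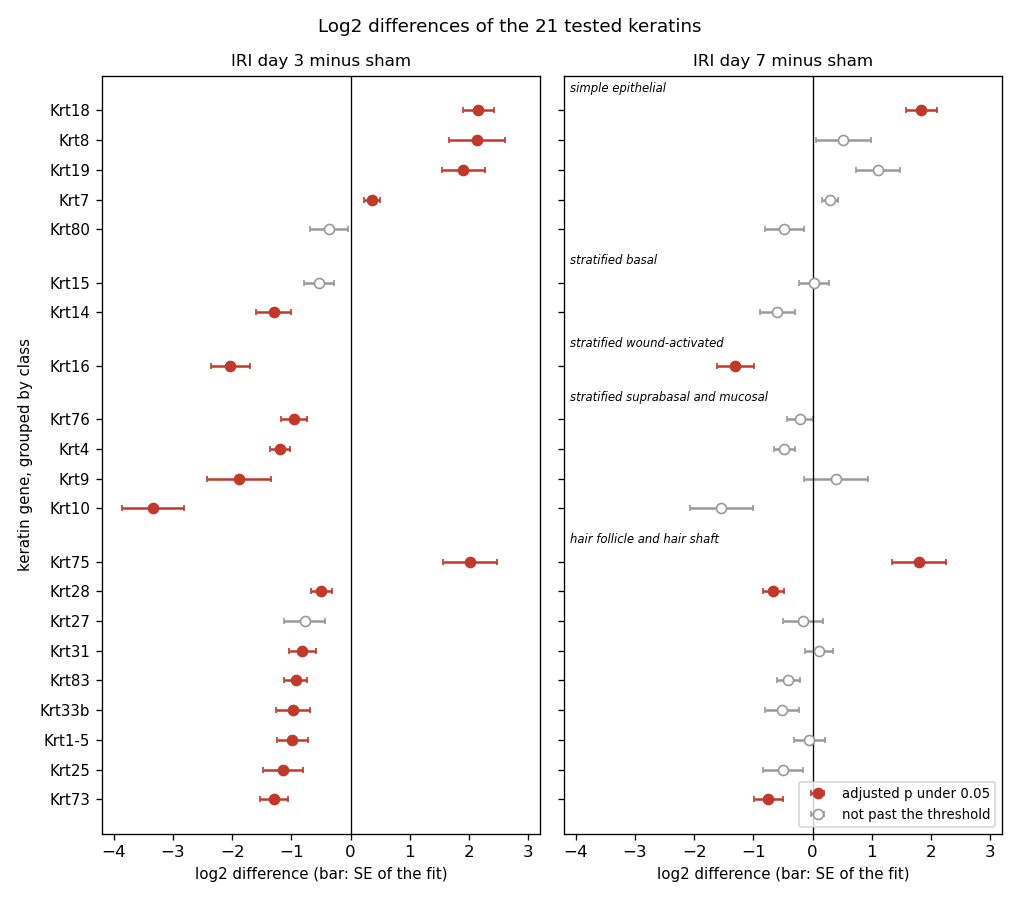
Log2 differences of the 21 tested keratins at IRI day 3 minus sham (left) and at IRI day 7 minus sham (right), grouped by class, with bars for the SE of the fit and filled points for adjusted p under 0.05. At day 3, 5 keratins lie to the right and 13 to the left of 0 with filled points, and at day 7 only 5 points are filled.

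Krt18, the type I partner of Krt8, stood at 0.22, -0.39, 0.20 and 0.10 on the day 3 arrays. It stood at 0.51, -0.62, -0.27 and -0.76 at day 7 and at -2.32, -1.89, -2.30 and -1.99 in sham. Every injured array lay above every sham array, and the injured groups overlapped each other. Krt18 rose 4.47-fold at day 3 (log2 difference 2.16 ± 0.26 SE, limma adjusted p = 4.69e-05, n = 4 each) and was still 3.58-fold higher at day 7 (1.84 ± 0.26 SE, limma adjusted p = 0.0012). Within the 3 slides the day 3 difference was 2.35, 2.05 and 1.92 and the day 7 difference 1.54, 1.62 and 2.18. Of the 5 tested simple keratins it was the one that passed the threshold in both comparisons with sham.

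Krt8, the type II partner, stood at -0.77, -0.71, -1.09 and -0.61 at day 3. It stood at -2.09, -2.80, -1.51 and -3.25 at day 7 and at -2.65, -1.63, -3.67 and -3.78 in sham, where 3 of 4 arrays were above background. All day 3 arrays lay above all others, and the day 7 and sham arrays overlapped widely. Krt8 rose 4.40-fold at day 3 (2.14 ± 0.47 SE, limma adjusted p = 0.00221), with 2.13, 0.94 and 2.96 within the slides. At day 7 the difference from sham was 0.52 ± 0.47 SE (limma adjusted p = 0.47), and Krt8 was 3.07-fold lower at day 7 than at day 3 (-1.62 ± 0.47 SE, limma adjusted p = 0.0224). The change between the days lost its call (adjusted p up to 0.0673) in 4 of 12 fits that each left out 1 array: without replicate 2 or 4 of either injured group.

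Krt19, a type I keratin of ducts, stood at 0.01, -0.36, 0.18 and -0.46 at day 3. It stood at -0.28, -1.35, -0.29 and -1.90 at day 7 and at -2.49, -1.45, -1.93 and -2.38 in sham. The day 3 arrays lay above all sham arrays, and at day 7 replicate 4 lay within the range of sham and replicate 2 just above it. Krt19 rose 3.74-fold at day 3 (1.90 ± 0.36 SE, limma adjusted p = 0.000937). At day 7 the difference of 1.11 ± 0.36 SE did not pass (limma adjusted p = 0.0528), and the difference between day 7 and day 3 was -0.80 ± 0.36 SE (limma adjusted p = 0.111).

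Krt7, a type II keratin of ducts and urothelium, moved little but with little spread. It stood at 1.98, 1.80, 1.60 and 1.84 at day 3, at 1.96, 1.64, 1.65 and 1.72 at day 7, and at 1.46, 1.47, 1.40 and 1.44 in sham. Every injured array lay above every sham array. Krt7 rose 1.28-fold at day 3 (0.36 ± 0.13 SE, limma adjusted p = 0.0305), a call that was lost in 5 of 12 fits that left out 1 array (sham replicate 1 or 3, or day 3 replicate 1, 2 or 4; adjusted p up to 0.0942). It was also lost with the slide as a block (limma adjusted p = 0.0598) and with no filter on dim probes (limma adjusted p = 0.0509). At day 7 the difference was 0.30 ± 0.13 SE (limma adjusted p = 0.128). Krt80, a type II keratin of many epithelia, did not pass, with -0.37 ± 0.32 SE at day 3 (limma adjusted p = 0.345) and -0.47 ± 0.32 SE at day 7 (limma adjusted p = 0.329).

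**Figure D2:**
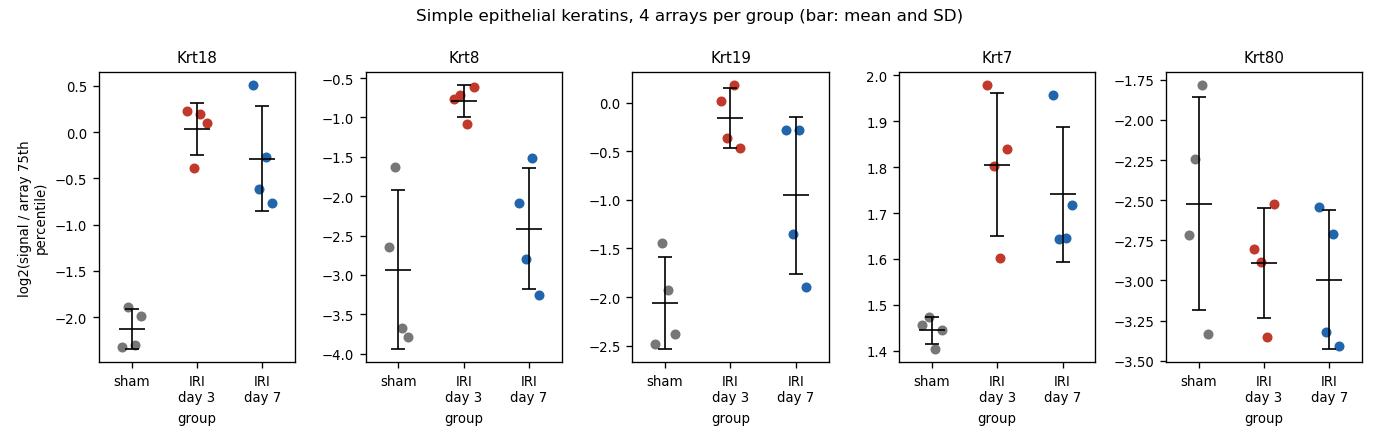
Level of the 5 tested simple epithelial keratins on every array (points) with the group mean and SD (bars), as log2 of the signal over the 75th percentile of the array; each panel has its own axis. Krt18 and Krt7 lie above all sham arrays in both injured groups, Krt8 and Krt19 only at day 3.

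The day 3 rises of the simple keratins were measured while markers of the duct cells that carry them in the uninjured kidney were low. These marker levels are relative to the 75th percentile, and at day 7 their summed level lay above that of sham. Of 10 tested collecting duct markers 9 fell at day 3, where 33.1% of all tested genes fell, among them Slc4a1 (the basolateral anion exchanger of intercalated cells, -3.16), Scnn1g (an epithelial sodium channel subunit, -2.33), the water channels Aqp2 (-1.71) and Aqp3 (-1.62), and none rose. The median was -1.57, against -0.13 over all tested genes. The summed level of the 10, as a multiple of the 75th percentile, was 8.07 to 12.8 at day 3, 47.2 to 61.8 at day 7 and 24.2 to 45.0 in sham. All 6 tested markers of injured tubule rose at both times, Spp1 (osteopontin) by 7.29 at day 3 and 7.08 at day 7 and Havcr1 (kidney injury molecule 1) by 6.41 at day 3 and 2.53 at day 7 and Lcn2 (neutrophil gelatinase-associated lipocalin) by 2.24 and 0.96. Spp1 stood above background on 3 of 4 sham arrays, so it passed the filter only through the injured groups. In the other segments, all 5 thick ascending limb markers fell at day 3, among them Umod (-5.82) and Slc12a1 (-2.35), and 5 of 6 proximal tubule markers, among them Slc34a1 (-3.83) and Lrp2 (-1.66). Of 5 general epithelial markers the tight junction genes Cldn4 (3.17) and Cldn7 (1.95) rose at day 3 and the kidney cadherin Cdh16 fell (-0.74), while Epcam (-0.32, limma adjusted p = 0.264) and Cdh1 (0.37, limma adjusted p = 0.132) did not pass. In a whole kidney, fewer cells of a type and less RNA per cell cannot be told apart, and the part of cell composition in any keratin result was not tested.

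Probes outside the name rule bear on Krt8 and Krt18, because both genes have close copies in the rat genome and a probe can bind more than 1 of them. The files hold 18 probes of 15 keratin-like genes outside the name rule, of which 12 genes were tested, and these include other keratins such as Krt6c and Krt81. Of the tested ones not described further, Krt81 (-1.47), Krt88 (-1.29) and LOC683720 (-1.07) fell at day 3. TC613234 (-0.01, limma adjusted p = 0.96), Ka11 (-0.35, limma adjusted p = 0.192) and Krt222 (0.23, limma adjusted p = 0.625) did not pass. LOC100362689, annotated as keratin 8-like, stood at 3.26 ± 0.12 at day 3, 2.03 ± 0.48 at day 7 and 1.12 ± 0.35 in sham (SD, n = 4 each). It rose by 2.14 ± 0.24 SE at day 3 and by 0.91 ± 0.24 SE at day 7, and fell by 1.23 ± 0.24 SE between day 3 and day 7 (limma adjusted p = 3.14e-05, 0.0219 and 0.00405). These differences have the signs of those of Krt8. The day 7 call of LOC100362689 was lost without sham replicate 3 or day 7 replicate 1 or 3 (limma adjusted p up to 0.0635).

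Of 3 probes annotated as similar to keratin 18, all rose at both times. LOC683212 rose by 2.34 at day 3 and 1.99 at day 7, XM_235966 (similar to endo B cytokeratin, an older name of mouse Krt18) by 2.34 and 2.11, and LOC499023, above background on 1 of 4 sham arrays, by 1.99 and 2.10. LOC683212 stood above background on 3 of 4 sham arrays, so it and LOC499023 passed the filter only through the injured groups. None of the 3 probes passed between day 7 and day 3, as for Krt18 itself. Another probe, ENSRNOT00000036962, whose Ensembl description is also that of keratin 18, differed by 0.46 at day 3 (limma adjusted p = 0.113) and by 0.73 at day 7 (limma adjusted p = 0.0498). That day 7 call held in 1 of 12 fits that left out 1 array, the one without sham replicate 3, and adjusted p reached 0.114 in the others. Which of these transcripts each probe measured was not tested.

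**Figure D3:**
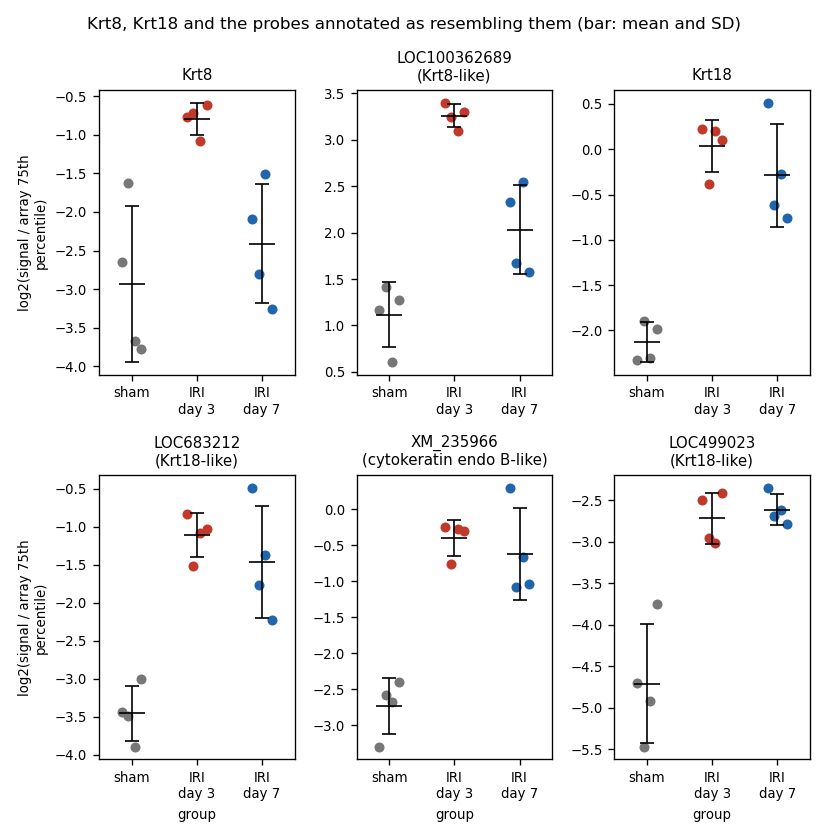
Level on every array (points) with group mean and SD (bars) for Krt8, Krt18 and 4 probes annotated as resembling them, as log2 of the signal over the 75th percentile of the array; each panel has its own axis. In all 6 panels the day 3 arrays lie above all sham arrays, and Krt8 and LOC100362689 are lower at day 7 than at day 3.

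Krt75, a type II keratin of the companion layer of the hair follicle, was the only tested keratin outside the simple class that rose at day 3. It stood at -1.56, -1.39, -3.21 and -0.71 at day 3, at -2.17, -2.57, -1.66 and -1.35 at day 7 and at -3.65, -4.19, -3.35 and -3.77 in sham. All injured arrays lay above all sham arrays, but day 3 replicate 3 was close to the highest sham array, and only 2 of 4 sham arrays were above background. Krt75 thus passed the detection filter only through the injured groups, which favoured its direction. Krt75 rose 4.06-fold at day 3 (2.02 ± 0.45 SE, limma adjusted p = 0.00253) and was 3.48-fold higher at day 7 (1.80 ± 0.45 SE, limma adjusted p = 0.0181). Within the slides the day 3 difference was 0.50, 3.05 and 1.97. The day 7 call was lost without day 7 replicate 3 (adjusted p = 0.0518).

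The keratins of stratified epithelia ran the other way at day 3. Krt10, the type I keratin of the upper epidermis, stood at -4.51, -3.64, -3.89 and -5.07 at day 3. It stood at -3.69, -1.48, -3.34 and -1.44 at day 7 and at -1.46, -1.01, -0.21 and -1.09 in sham. All day 3 arrays lay below all sham arrays, while day 7 split into a pair near sham and a pair near day 3. Krt10 fell 10.1-fold at day 3 (-3.33 ± 0.53 SE, limma adjusted p = 0.00026), which was the largest fall among the 21 keratins. At day 7 the difference from sham was -1.54 ± 0.53 SE (limma adjusted p = 0.0604) and did not pass, and Krt10 was 3.46-fold higher at day 7 than at day 3 (1.79 ± 0.53 SE, limma adjusted p = 0.0238). The change between the days lost its call in 4 of 12 fits that left out 1 array, those without replicate 1 or 4 of day 3 or replicate 2 or 4 of day 7 (adjusted p up to 0.0739).

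Krt9, the keratin of palm and sole skin, stood at -3.06, -3.37, -3.20 and -2.90 at day 3. It stood at -0.74, -0.40, -2.57 and 0.30 at day 7 and at -0.95, -2.42, -0.49 and -1.13 in sham. The day 3 arrays lay below all others, and day 7 and sham overlapped. Krt9 fell 3.69-fold at day 3 (-1.88 ± 0.54 SE, limma adjusted p = 0.0104), did not pass at day 7 against sham (0.39 ± 0.54 SE, limma adjusted p = 0.653) and was 4.84-fold higher at day 7 than at day 3 (2.28 ± 0.54 SE, limma adjusted p = 0.00981). Within the slides the rise between the days was 2.80, 0.41 and 3.14.

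Krt4, a type II keratin of mucosal epithelium, stood at -1.69, -1.75, -1.74 and -1.47 at day 3. It stood at -0.62, -1.18, -1.28 and -0.72 at day 7 and at -0.48, -0.72, -0.34 and -0.34 in sham. The day 3 arrays were below all others, and day 7 arrays lay between, with replicates 1 and 4 within the range of sham. Krt4 fell 2.29-fold at day 3 (-1.19 ± 0.17 SE, limma adjusted p = 0.000159) and was 1.64-fold higher at day 7 than at day 3 (0.71 ± 0.17 SE, limma adjusted p = 0.0114). The day 7 difference from sham was -0.48 ± 0.17 SE (limma adjusted p = 0.0757). Krt76, a type II keratin of the palate, fell 1.94-fold at day 3 (-0.96 ± 0.22 SE, limma adjusted p = 0.003) and was 1.68-fold higher at day 7 than at day 3 (0.75 ± 0.22 SE, limma adjusted p = 0.0241), a call lost in 4 of 12 fits that left out 1 array: without replicate 1 or 4 of either injured group (adjusted p up to 0.0707). Its probe stood above background on all 4 sham arrays and on 3 of 4 arrays of each injured group. Krt76 was thus tested only through sham, which favoured its fall.

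Krt16, a type I keratin of wounded epidermis, stood at -5.38, -4.75 and -5.43 on 3 day 3 arrays, at -4.28, -4.25, -5.27 and -4.07 at day 7 and at -2.88, -3.44, -2.64 and -3.67 in sham. None of these injured arrays was above background for Krt16 and all 4 sham arrays were, with no overlap. Krt16 was thus tested only because of its sham arrays, and its p-values rest on injured readings below background. The Krt16 spot of day 3 replicate 1 was flagged as non-uniform, with 100883 intensity units where the other 11 arrays read 14.6 to 47.2, and the fit leaves it out. Against the background limit, Krt16 was at least 2.64-fold lower at day 3 and at least 1.62-fold lower at day 7, bounds that were not tested. The limma test used the measured values (adjusted p = 0.000471 at day 3, 3 arrays against 4, and 0.0161 at day 7). The measured means were -5.19 at day 3, -4.47 at day 7 and -3.16 in sham. In the authors' deposited table, which kept the flagged spot, the day 3 difference was 1.14, of the opposite sign, and did not pass (limma adjusted p = 0.673).

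Krt14, the basal partner of Krt5, stood at -3.99, -3.76, -3.43 and -3.85 at day 3. It stood at -2.92, -3.05, -3.45 and -2.78 at day 7 and at -2.45, -3.27, -1.65 and -2.46 in sham. The day 3 arrays lay below all sham arrays, and day 7 overlapped both. Krt14 fell 2.46-fold at day 3 (-1.30 ± 0.29 SE, limma adjusted p = 0.00244) and did not pass at day 7 (-0.59 ± 0.29 SE, limma adjusted p = 0.171). Krt15, of the basal layer and hair bulge, passed in neither comparison, with -0.53 ± 0.25 SE at day 3 (limma adjusted p = 0.0946) and 0.02 ± 0.25 SE at day 7 (limma adjusted p = 0.963). Of keratins outside the name rule, Krt6c, a Krt6 gene, fell by 0.90 ± 0.20 SE at day 3 relative to the 75th percentile (limma adjusted p = 0.00232), with an unscaled difference of 0.25. That is its brightest probe, and its other probes differed. One ran from -4.23 to -3.60 at day 3 and from -3.29 to -2.45 in sham. Another overlapped, with -4.74 to -4.31 at day 3 and -5.19 to -3.41 in sham.

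**Figure D4:**
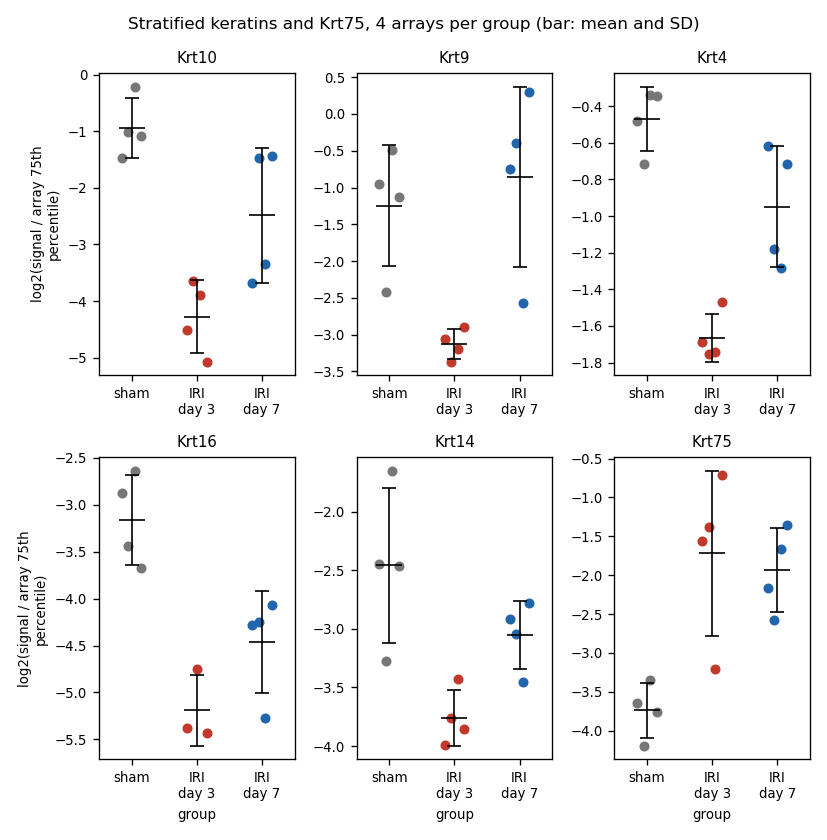
Level of 5 stratified keratins and of Krt75 on every array (points) with the group mean and SD (bars), as log2 of the signal over the 75th percentile of the array; each panel has its own axis, and Krt16 has 3 usable arrays at day 3. Krt10, Krt9, Krt4, Krt16 and Krt14 are lowest at day 3, and Krt75 is above sham in both injured groups.

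At day 3, 7 hair keratins fell: Krt73 by 1.29, Krt25 by 1.14, Krt1-5 by 0.99, Krt33b by 0.97, Krt83 by 0.92, Krt31 by 0.82 and Krt28 by 0.49 on the log2 scale. Krt25, Krt28 and Krt73 belong to the inner root sheath of the follicle and the other 4 to the hair shaft. Krt27, also of the inner root sheath, did not pass (-0.77 ± 0.35 SE, limma adjusted p = 0.0748). Between day 3 and day 7, Krt1-5 rose by 0.93 (limma adjusted p = 0.0209) and Krt31 by 0.93 (limma adjusted p = 0.0121), each 1.90-fold. The call of Krt1-5 was lost without day 3 replicate 1, 2 or 4 (adjusted p up to 0.0555).

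Krt28 and Krt73 were the hair keratins that passed as lower at both times. Krt28 stood at -3.02, -2.84, -3.09 and -2.39 at day 3, at -2.92, -3.24, -2.94 and -2.92 at day 7 and at -2.27, -2.59, -2.16 and -2.34 in sham. It fell 1.41-fold at day 3 (-0.49 ± 0.18 SE, limma adjusted p = 0.0301), where 1 array reached into the range of sham, and was 1.58-fold lower at day 7 (-0.66 ± 0.18 SE, limma adjusted p = 0.0229). The day 3 call was lost in 6 of 12 fits that left out 1 array (sham replicate 1, 3 or 4, or day 3 replicate 1, 2 or 3; adjusted p up to 0.0841) and the day 7 call in 3 (sham replicate 1 or 3, or day 7 replicate 2; adjusted p up to 0.0564). Krt73 was 1.68-fold lower at day 7 (-0.75 ± 0.24 SE, limma adjusted p = 0.05, just under the threshold). That call held in only 2 of the 12 fits, those without sham replicate 4 or day 3 replicate 1. Scaling to the 75th percentile lowered every day 7 difference by 0.64, close to the size of both falls. With total signal scaling the day 7 calls of Krt28 and Krt73 were both lost, as was the day 3 call of Krt28.

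The direction of most falls depends on the scaling. Of the 13 keratins called lower at day 3, 3 had an unscaled signal lower by more than 0.5 on the log2 scale: Krt10 (-2.18), Krt9 (-0.73) and Krt16, whose day 3 readings were below background and give no measured size. The other 10 differed by -0.15 to 0.66 before scaling and by -1.30 to -0.49 after it. The 5 keratins called higher were higher on both scales, with unscaled differences of 3.31 for Krt18, 3.29 for Krt8, 3.17 for Krt75, 3.05 for Krt19 and 1.51 for Krt7. Probes that stood above background on no array give the shift of a signal at the floor. Over 4488 such probes the median day 3 difference was -0.78 scaled and 0.37 unscaled, and over the 13 keratin probes among them it was -0.85 scaled. The part of this shift in the falls of dim keratins was not tested.

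**Figure D5:**
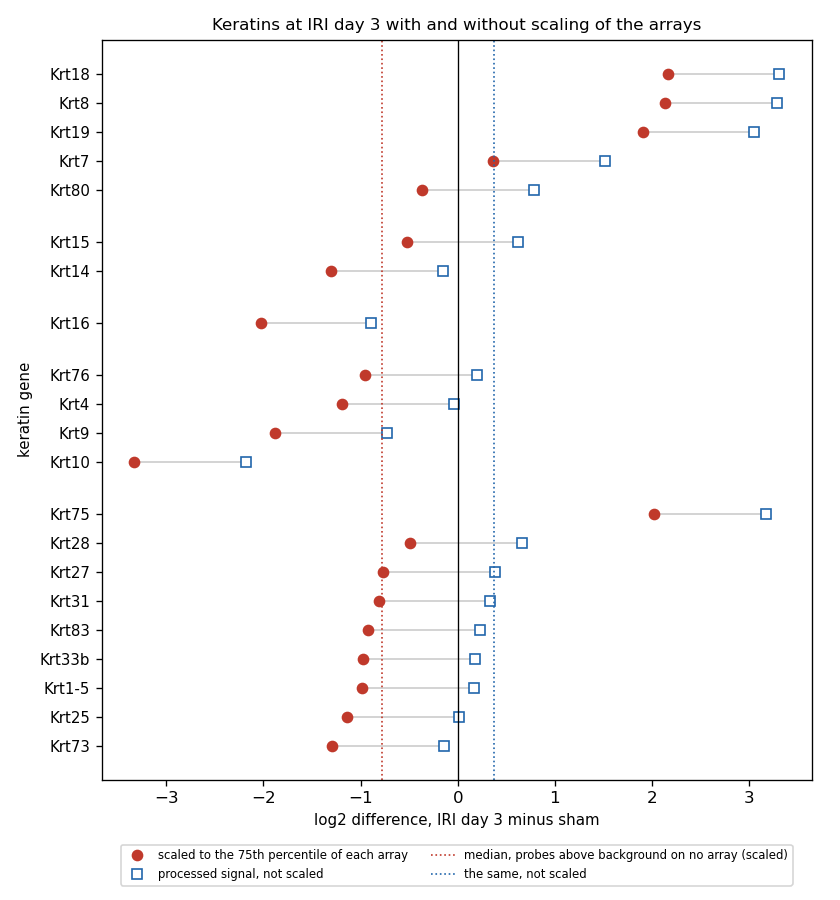
Day 3 minus sham difference of each tested keratin on the log2 scale after scaling to the 75th percentile (circles) and without scaling (squares), with dotted lines at the median of probes that were above background on no array (-0.78 scaled, 0.37 unscaled). Krt10, Krt9 and Krt16 have an unscaled difference below -0.5, that of Krt16 from day 3 readings below background, and the 5 called higher lie right of 0 on both scales.

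The calls also depended on how background was removed. With a normexp correction of the raw spots in place of the processed signal, 4 of the 18 day 3 calls were kept, Krt10, Krt16, Krt9 and Krt4, all lower. The differences of the keratins called higher then were 0.67 for Krt18 (limma adjusted p = 0.161), 0.60 for Krt19 (limma adjusted p = 0.225), 0.57 for Krt7 (limma adjusted p = 0.0964), 0.49 for Krt8 (limma adjusted p = 0.405) and 0.05 for Krt75 (limma adjusted p = 0.942), and none passed. Spots below their local background, 0 to 24 of 42877 non-control spots per array, were then left out of that correction. All 18 calls were kept in that fit, with 1.37 for Krt18 (limma adjusted p = 4.53e-05) and 1.02 for Krt8 (limma adjusted p = 0.000701), and Krt15, Krt27 and Krt80 also passed as lower.

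By day 7 most keratins no longer passed against sham. In the comparison of IRI day 7 with sham 5 of 21 keratins passed, Krt18 and Krt75 higher and Krt16, Krt28 and Krt73 lower, against 18.8% of all genes (8.21% higher and 10.6% lower). The groups did not overlap for 6 of the 21, against 21.7% of all genes, so these shares are close to those of all genes. The median difference was -0.21 over the keratins and -0.07 over all tested genes, 0.52 over the 5 simple keratins, -0.48 over the 7 stratified keratins and -0.41 over the 9 hair keratins. With the replicate number as a block 3 keratins passed, without Krt16 and Krt73.

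Between the days, 1 of the 5 simple keratins fell and 4 of the 7 stratified keratins rose. In the comparison of IRI day 7 with IRI day 3, 7 of 21 keratins passed, against 31.4% of all genes. Krt8 was lower at day 7, and Krt9, Krt10, Krt1-5, Krt31, Krt76 and Krt4 were higher. Of all genes 18.0% passed as higher and 13.4% as lower. The groups did not overlap for 7 keratins, against 36.2% of all genes. All 4 tested suprabasal and mucosal keratins were among those higher, with a median of 1.27, while the median over all genes was 0.05. The median of probes above background on no array was 0.82 scaled in this comparison and 0.31 unscaled.

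Keratin filaments are anchored at desmosomes and bound by linker proteins. The counts of the lists below stand beside 24.2% of all tested genes that passed as higher and 33.1% as lower at day 3, and 8.21% and 10.6% at day 7. Of 9 tested desmosome genes, 2 rose and 1 fell at day 3, namely the desmosomal cadherins Dsc2 (1.33 ± 0.44 SE, limma adjusted p = 0.0212), Dsg2 (1.29 ± 0.27 SE, limma adjusted p = 0.00183) and Dsg4 (-1.37 ± 0.35 SE, limma adjusted p = 0.00591). At day 7 only the plaque gene Pkp3 passed, lower by 1.43. Dsc2 and Dsg2 stood above background on 4 of 4 day 3 arrays, 3 of 4 day 7 arrays and 2 of 4 sham arrays. Both thus passed the detection filter only through day 3, which favoured their direction. The median of the list was 0.14 at day 3. Of 8 tested genes looked for as linkers or keratin-binding proteins, 3 rose at day 3: periplakin Ppl (2.15 ± 0.74 SE, limma adjusted p = 0.026), plectin Plec (1.47 ± 0.23 SE, limma adjusted p = 0.00027) and the keratin organiser Fam83h (0.99 ± 0.29 SE, limma adjusted p = 0.0118). Not every gene of this list is known to bind keratin. Ppl stood above background on 4 day 3, 2 day 7 and 1 sham arrays, so it too passed the filter only through day 3. Krtcap3, which is named for keratinocytes and is not known as a linker, fell by 1.04. The median of the list was 0.28, and at day 7 none of the 8 passed.

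Other intermediate filaments were measured on the same arrays. Vim, the filament of mesenchymal cells that injured tubule cells also make, rose by 3.22 ± 0.45 SE at day 3 (limma adjusted p = 0.000115) and differed by 1.07 ± 0.45 SE at day 7 (limma adjusted p = 0.116). Of 10 tested genes of this list 4 rose at day 3, among them desmin Des (0.98) and the lamin Lmna (0.84), and 1 fell, the lamin Lmnb1 (-1.03). At day 7, 2 rose, among them Lmna (0.80), and synemin Synm fell (-0.996). The median of this list was 0.36 at day 3.

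Of 8 transcription factors of epithelia 4 rose at day 3, Sox9 (2.50), Klf5 (2.41), Elf3 (1.65) and Klf4 (1.23), and Ovol1 (-1.23) and 1 more fell. Klf5 stood above background on 2 of 4 sham arrays and Klf4 on 3, so both passed the filter only through the injured groups. Sox9 (2.24) and Elf3 (1.61) were also higher at day 7. The median of the 8 was 0.38 at day 3. Of 7 tested genes of the cornified envelope, the tough shell of upper epidermal cells, 5 fell at day 3, among them Tgm3 (-2.10), Sprr1b (-1.93) and Cnfn (-0.96), while the cross-linking enzyme Tgm1 rose (2.72). The median of the 7 was -0.66, and none passed at day 7.

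Genes looked for as markers of tissues next to the kidney parenchyma were measured beside the stratified keratins. Other kidney cells can also carry some of them. Of 4 tested urothelium markers 3 fell at day 3: the uroplakins Upk1a (-1.17) and Upk3a (-0.99) and the factor Gata3 (-0.75). Their unscaled differences were -0.02, 0.16 and 0.40. Upk1b (-0.91, limma adjusted p = 0.125) did not pass. Their summed level was 0.685 to 1.16 times the 75th percentile at day 3, 1.83 to 2.28 at day 7 and 1.63 to 2.03 in sham. On this scale day 3 lay below the other groups. Gata3 was the brightest of the 4 on every array, at -0.39 to 0.18 in sham and 0.40 to 0.83 at day 7, so the sum follows it more than the uroplakins. Of 3 tested genes looked for as mesothelium markers Wt1 fell (-1.65) and Upk3b (-0.40, limma adjusted p = 0.409) did not pass, and Msln did not pass the filter. Their sums were 0.393 to 1.08 at day 3, 0.573 to 1.57 at day 7 and 1.07 to 2.32 in sham. Those sums rest mostly on Wt1, which stood at -0.08 to 0.91 in sham, where Upk3b stood at -4.58 to -2.31. Of 3 tested squamous markers Flg fell (-0.65), and Dsg3 (-0.34, limma adjusted p = 0.42) and Ivl (-0.66, limma adjusted p = 0.16) did not pass, with sums of 0.403 to 0.472 at day 3, 0.463 to 0.667 at day 7 and 0.608 to 0.915 in sham. All these sums are relative to the 75th percentile, which at day 3 was 2.17 times that of sham, and no unscaled sums are given. The part of these tissues in the keratin results was not tested.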

How the data were processed

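Per the labels, left kidneys gave total RNA that was labelled with Cy3, and 12 arrays held 1 rat each. Per the file headers, Agilent Feature Extraction 9.5.1.1 gave the processed signal, an intensity that is background-subtracted and detrended within the array but not normalized between arrays, and probes were placed on rn4. Mean and local background intensities and spot flags of 0 or 1 are also given, per the file headers. The authors' deposited value table holds log2 values centred on each probe, which carry differences but no level and were used as an alternative; how they treated flagged spots was inferred from the values.

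From the files, log2 of the processed signal minus that of the 75th percentile of the array was computed, after setting aside spots flagged as outliers and averaging spots of a probe. Probes were kept if in at least 1 group each of the 4 arrays read them well above background, and the brightest stood for its gene, which left 18511 genes. Where no array of a group read a keratin above background, its bound used, per array, the higher of its own value and the lowest signal of any probe well above background, and is written as at least N-fold. The comparisons used limma 3.58.1 (lmFit, eBayes) under R 4.3.3 (two-sided, all 12 arrays, Benjamini-Hochberg over all tested genes, threshold 0.05). The test was tried on simulated data for the day 3 comparison. Alternatives changed the background correction, the scaling, the filter on dim probes, the blocks (slide, scan batch, replicate number) and left out each array in turn.

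Names came from the files and a RefSeq table on GRCr8. Every keratin that was tested is named with values, and others by name only. Of each other list at most 4 genes past the threshold at day 3 and 2 at day 7 are named, with the first 2 of each marker list. The keratins, classes and lists were chosen with earlier results of these data known. The promoter stretches stop at the annotated start. Replicate numbers do not pair rats: correlations of deviations ran from -0.330 to 0.142 over 12 same-number pairs.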

Additional observations from a re-analysis of the deposited data

Results flagged for a closer look

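In a group of 4 arrays, 1 keratin value stood far from the rest. Krt28 was at -3.24 on the array of day 7 replicate 2, where the other day 7 arrays ran from -2.94 to -2.92. Of 62 sets of 4 arrays looked at this was the only one past Dixon's critical value, and chance alone marks about 1 in 20.

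The change from sham differed between the injured groups for 7 keratins, by the limma test of day 7 against day 3. Krt8 was lower at day 7 (-1.62). Krt9 (2.28), Krt10 (1.79), Krt1-5 (0.93), Krt31 (0.93), Krt76 (0.75) and Krt4 (0.71) were higher at day 7.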

How the results depend on the processing

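Counts of calls moved most with the background correction. With normexp correction 3167, 91 and 159 genes and 4, 0 and 0 keratins passed at day 3 against sham, day 7 against sham and day 7 against day 3 (limma), where 10, 1 and 3 keratins had an unadjusted p under 0.05. Without spots below their local background 21, 4 and 15 keratins passed. The cause was not tested. With no filter on dim probes 28 keratins passed at day 3, of 44 tested; with probes above background on all 12 arrays 10 passed at day 3 and 4 between the days, of 12 tested. With the replicate block 10134, 2464 and 4698 genes and 18, 3 and 6 keratins passed. Leaving out 1 array gave 9300 to 10651, 2042 to 3479 and 3477 to 6670 genes and 16 to 19, 3 to 6 and 3 to 10 keratins. The lowest keratin counts came without sham replicate 3, without sham replicate 1 and without day 3 replicate 4. Scaling to the total signal moved the split to 6213 higher and 4397 lower genes at day 3 (4475 and 6131 by the 75th percentile) and to 3238 and 914 at day 7 (1519 and 1966). It shifted the median gene to 0.15 and 0.17. Keratins called higher and lower were then 5 and 10 at day 3 and 4 and 1 at day 7. In the authors' deposited table they were 5 and 11 at day 3 and 3 and 1 at day 7, and Krt16 at day 3 reversed to 1.14. With the slide as a block 4 rose, without Krt7, and 15 fell at day 3; with no filter on dim probes Krt7 also missed the threshold. Signal over background limits the dim keratins.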
